A study of Saccharomyces cerevisiae with 10 samples.

Results

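The outermost 30 kb of each yeast chromosome, as far as SNP probes reach, formed 32 chromosome ends, 2 for each of the 16 chromosomes. A SNP was counted in an end if its position lay within 30 kb of the first or last probe of its chromosome. Of 13461 SNPs with probes for both alleles, 1331 lay in an end (9.89%) and 12130 in the chromosome interior. The ends held 5463 of the 53664 probes. No measured ratio entered this choice.

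The arrays compared genomic DNA of 10 diploid isolates of Saccharomyces cerevisiae, each labelled with Cy5, with Cy3-labelled DNA of the diploid JSC24, the control on every array. All isolates carried the background W303-1A crossed with YJM789, so that most SNPs start out heterozygous. The study's question concerned RNase H2, an enzyme that cuts DNA at embedded ribonucleotides, and genome instability. The isolates were zygotes of MD893-1 crossed with LSY3454-2 (4 zygotes) and of MD893-2 crossed with LSY3454-2 (2 zygotes), and purified isolates A and B of HK10 and of HK12, all grown in YPD at 30 °C. The labels name no genotype for the HK strains or the crossed parents, and A and B of an HK name may share descent. Each isolate had 1 array, and p-values over isolates measure the spread between these isolates. The HK isolates and the zygotes differ at once in strain and in origin, which cannot be told apart here.

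A yeast telomere carries short repeats, and the DNA next to it holds gene families that also occur at other ends. An allele can be lost up to the telomere by a crossover between homologs or by copying the homolog to its end, which leaves a terminal tract of loss of heterozygosity (LOH). Gene conversion leaves an interstitial tract, with heterozygous SNPs on both sides. Repeats shared between ends can bind the same probe, and sequence near telomeres can vary between strains.

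At each SNP, d was the mean log2 ratio over S probes minus the mean over Y probes. It lies near 0 where both alleles are present, is positive where only S is kept and negative where only Y is kept. The labels do not define the letters S and Y. The signal s was the mean log2 ratio of both alleles. The number of SNPs per end ran from 2 at the right end of XIV to 119 at the right end of V, with a median of 37. The other ends with few SNPs were the right end of XV (6) and the left end of III (8). SNPs were spaced more densely in the ends (1.39 per kb) than in the interior (1.14 per kb). Across the ends the innermost member lay at most 30000 bp from the outermost probe, and the first SNP left out lay 30028 to 33531 bp from it.

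In the HK isolates 7 of the 32 ends held an LOH tract of at least 5 SNPs in at least 1 isolate, and 25 held none in any. The 7 were the left ends of I, X, XII and XVI and the right ends of IV, XI and XII. HK10 A had a tract in 5 ends, HK10 B in 5, HK12 A in 4 and HK12 B in 5. Of the zygotes, zygote 2 of each cross had 1 end with a call, at the left end of V, and the other 4 had 0. The HK isolates averaged 4.75 ± 0.5 ends (SD, n = 4) and the zygotes 0.333 ± 0.516 (SD, n = 6). No zygote reached the count of any HK isolate. The difference was 4.42 ends. An exact permutation test, two-sided, gave p = 0.00952, which is as low as 4 against 6 isolates allow. Taking the mean of A and B for each name, the exact two-sided p rose to 0.0714, again the lowest possible. The difference was not particular to the ends. By the calls counted here, 7.48% to 17.0% of interior SNPs were in LOH in the HK isolates and 0% in every zygote. Interior calls on II and XV shared by every zygote of a cross were left out, so the 0% does not cover them. Over the whole genome HK10 A and B had 14 tracts each, HK12 A had 8 and HK12 B had 9.

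At the 25 ends without a tract, the median d of the HK isolates lay between -0.24 and 0.09 where at least 5 SNPs were measured. Over all 32 ends it lay between -0.21 and 0.20 in the zygotes, by the same minimum. A median over a whole end can miss short stretches. At the left end of XII, which held interstitial tracts, the HK medians were near 0, from -0.13 to -0.08. At the right end of XI, which also held such tracts, they ran from -0.37 to 0.000584.

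**Figure D1:**
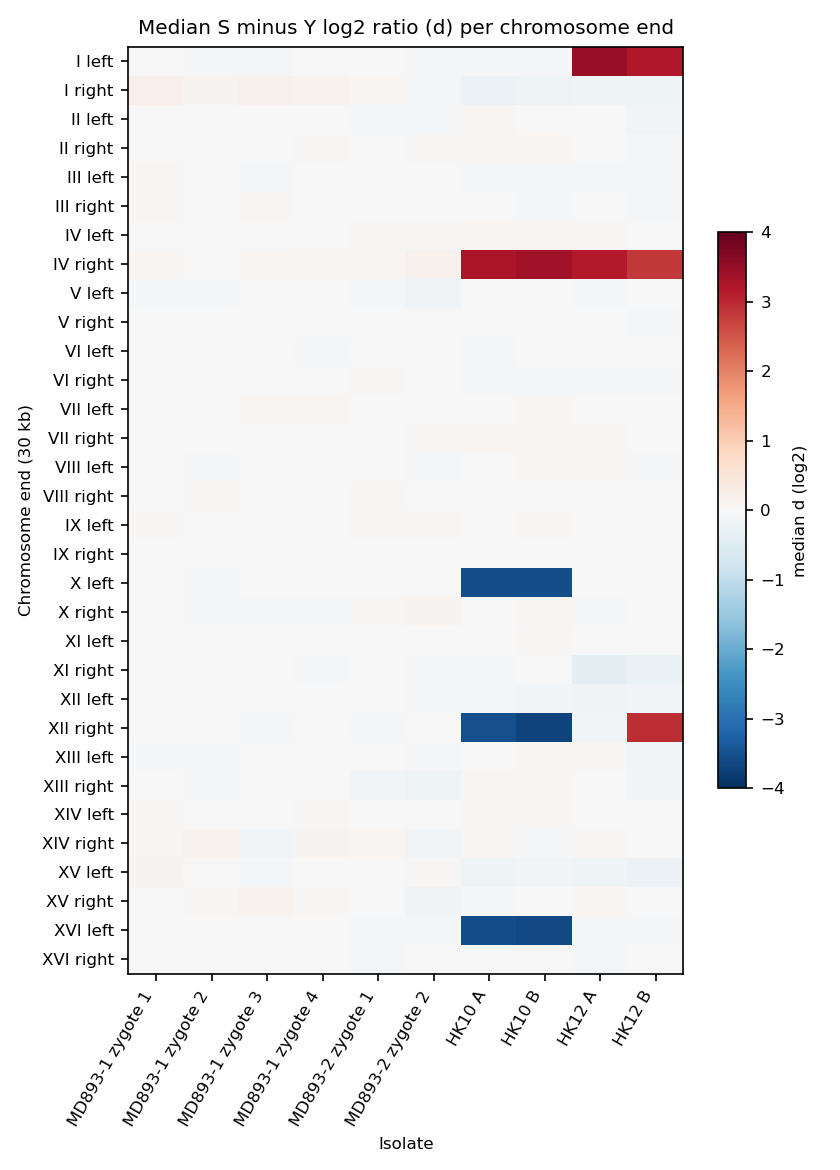
Median d (log2) of the SNPs in each of the 32 chromosome ends (rows) in the 10 isolates (columns); red is S kept, blue is Y kept and white is near 0. The right end of IV is S in all 4 HK isolates, the left ends of X and XVI are Y in HK10, and the right end of XII is Y in HK10 and S in HK12 B.

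The right end of IV was the one end at which all 4 HK isolates kept the same allele over every measured SNP. For HK10 the median d there was 3.27 in isolate A (31 SNPs) and 3.37 in isolate B (34 SNPs), and for HK12 it was 3.18 in isolate A (31 SNPs) and 2.84 in isolate B (34 SNPs). The zygotes' medians at this end ran from -0.01 to 0.16. All HK values thus lay far above all zygote values, and the S allele stayed in both HK names. The tracts reaching this end differed further inwards. In HK10 A the tract began at 726278 (596 SNPs in all) and in HK10 B at 1441463 (111 SNPs). In HK12 A and B it began at 458195.

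Both HK10 isolates kept the Y allele at the left end of X, with a median d of -3.55 in A (66 SNPs) and -3.53 in B (65 SNPs). The left end of XVI, the end with the second highest number of SNPs, was also Y in HK10, at -3.54 in A and -3.62 in B over 95 SNPs each. HK12 A and B were heterozygous at both ends, with no SNP in a tract. In each of these 4 cases the tract covered every measured SNP of the end, although at the left end of XVI the lowest absolute d of a single SNP was 0.943 in A and 0.415 in B.

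The right end of XII, the arm that carries the ribosomal RNA gene repeats, was the one end where different isolates kept opposite alleles. HK10 A (46 SNPs) and HK10 B (44 SNPs) kept Y, with a median d of -3.52 and -3.70. HK12 B kept S over 46 SNPs, at 2.94. HK12 A had no tract there. This was also the one end at which A and B of a name differed in state within the 30 kb. Over the end SNPs measured in both isolates, HK10 A and B had the same state at 1223 of 1223, and HK12 A and B at 1160 of 1206. All 46 SNPs that differed lay at the right end of XII.

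The left end of I kept the S allele in HK12 A and HK12 B and was heterozygous in HK10. The tract held 19 of 20 measured SNPs in HK12 A, with a median d of 3.50, and 16 of 17 in HK12 B, at 3.30. Unlike the other terminal tracts it ended within the 30 kb, at a last SNP at 28735 in HK12 A and 28705 in HK12 B, with 1 heterozygous SNP further inwards in each. Positions are those of the deposited table, whose genome build is not given in the sources used here, so no gene was placed on them. The outermost SNP, at 2813, had a d of -0.45 in HK12 A although the model put it in the S tract, so the allele state of that outermost SNP is not shown by its own value. In HK12 B the first measured SNP of the tract, at 2880, had a d of 1.93.

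Interstitial tracts lay within 2 ends. At the right end of XI, HK12 A and B were Y homozygous from 642427 to 650268, over 16 of 34 and 18 of 37 measured SNPs, with a tract median d of -3.27 and -3.22. On the outer side of the tract HK12 A had 9 heterozygous SNPs and HK12 B had 10, and on the inner side each had 9 within the end. The telomere-proximal SNPs there thus kept both alleles. HK10 A and B had no tract at this end.

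All 4 HK isolates had a Y tract at the left end of XII, but at different places. In HK10 A and B it ran from 35225 to 42230 over 9 SNPs, with a tract median d of -2.94 and -3.03. Of these 9, the SNP 22653 bp from the outermost probe had a d of 0.351 in A and 0.267 in B, so its own value does not show loss of S. In HK12 it lay closer to the telomere, from 28812 to 30315 in A (7 SNPs, -3.34) and to 30918 in B (8 SNPs, -3.18). The stretches do not overlap between the names. Outside its tract HK10 A had 27 heterozygous SNPs nearer to the telomere and HK12 A had 18.

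**Figure D2:**
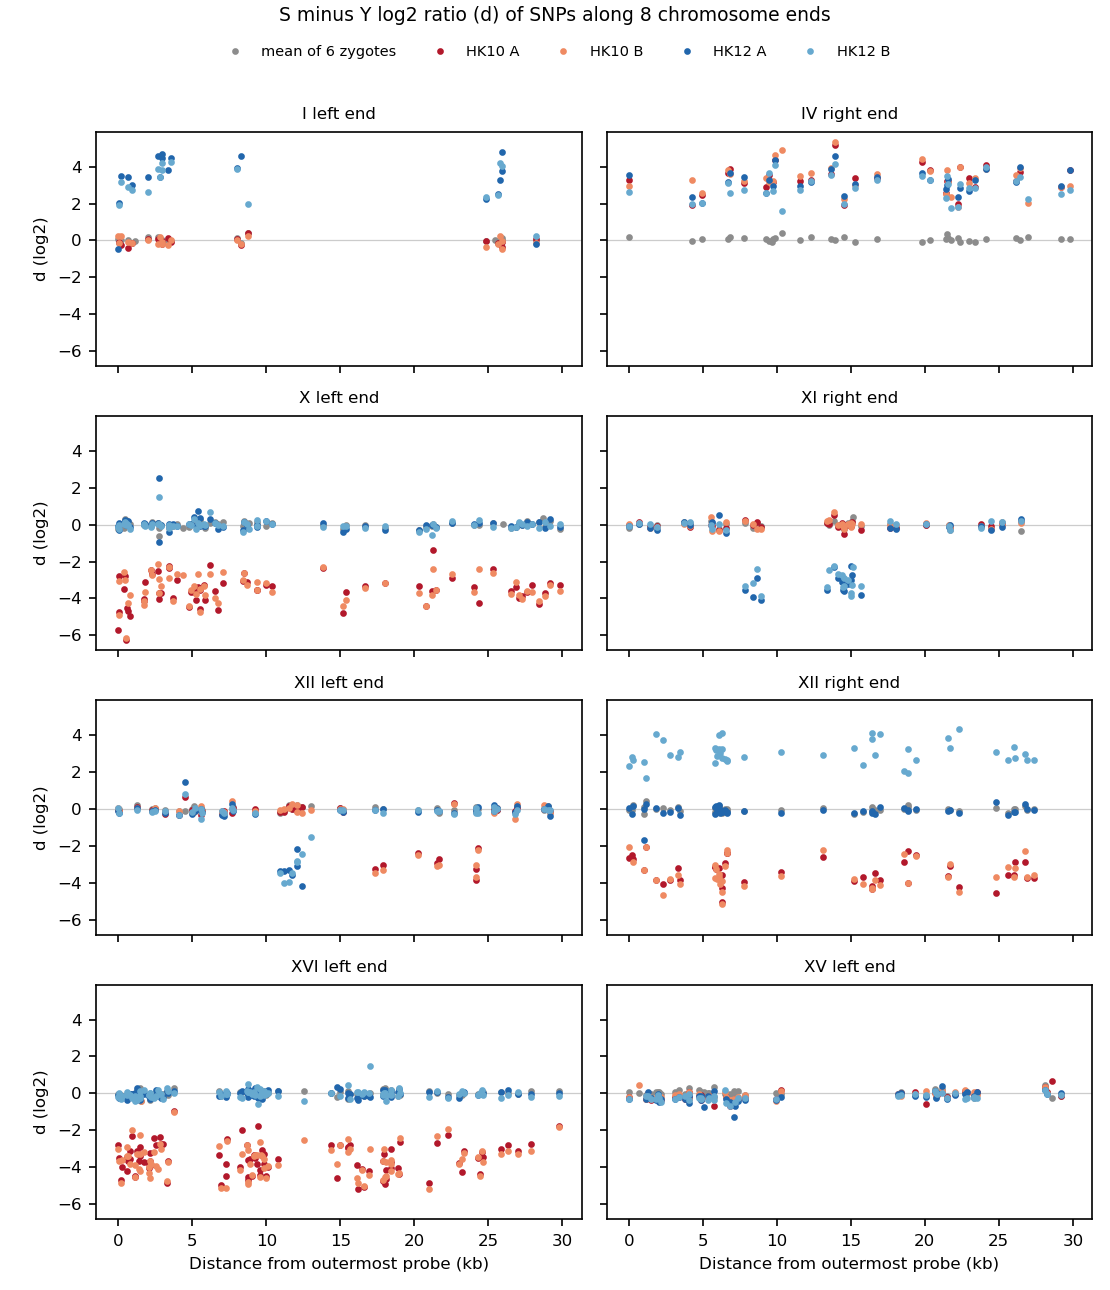
d (log2) of single SNPs against distance from the outermost probe (kb) at the 7 ends with a tract in the HK isolates and at the left end of XV; grey points are means of the 6 zygotes and coloured points single HK isolates. Terminal tracts fill the ends of IV, X, XII (right) and XVI, the I tract stops before the inner limit, and the XI and XII (left) tracts have heterozygous SNPs on both sides.

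In each of the 19 cases of a tract at an end in an HK isolate, one allele rose and the other fell. Against heterozygous SNPs of the same chromosome, the kept allele stood at 0.685 ± 0.0688 on the log2 scale (SD over the 19 cases, range 0.546 to 0.807). The lost allele stood at -2.67 ± 0.292 (range -3.12 to -2.21). The ranges lay on opposite sides of 0. Tracts were chosen by d, which fixes a gap between the alleles, so no test is given. The choice does not fix the level of each allele. The 19 cases are not independent, since A and B of a name share most of them within the end.

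Of the 13 terminal tracts, 11 went on beyond the end into the interior. In these 11, the absolute median d in the end differed from that in the rest of the tract by -0.24 to 0.33, and the kept allele by -0.04 to 0.10. Within the outermost 5 kb the absolute median d over the 13 tracts was 2.05 to 3.72. The allele loss therefore extended to the outermost probes in all 13 by this measure, with the outermost SNP of I in HK12 A as the exception given above.

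**Figure D3:**
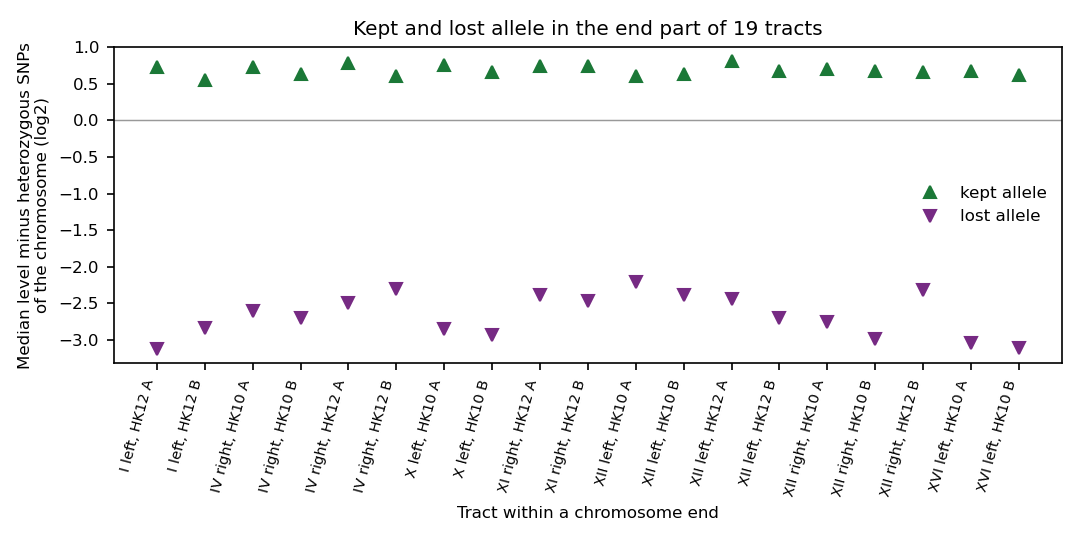
Median log2 level of the kept allele (triangles up) and the lost allele (triangles down) within the end, against heterozygous SNPs of the same chromosome, for the 19 tracts at ends in HK isolates. Kept alleles lie between 0.546 and 0.807 and lost alleles between -3.12 and -2.21.

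The ends did not hold a steadily larger share of LOH than the interior. In HK10 A 19.7% of measured end SNPs were in a tract against 17.0% of interior SNPs, and in HK10 B 19.7% against 12.7%. In HK12 A the shares were 5.92% at ends and 7.48% in the interior, and in HK12 B 9.78% and 12.7%. The names thus went opposite ways, and the mean difference over the 4 isolates was 1.33 percentage points. Without HK10 B the mean difference was -0.579 points. Neither value has a test, because tracts are few and mostly shared within a name.

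By allele, HK10 kept mostly Y at its ends, at 216 SNPs in A and 213 in B, against 31 and 34 SNPs for S, all at the right end of IV. HK12 kept mostly S, at 50 SNPs in A and 96 in B, against 23 and 26 for Y.

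The difference between the HK names was also fitted with limma over medians of d in 30 kb windows of the whole genome, with Benjamini-Hochberg adjustment. Of 378 windows 57 passed an adjusted p of 0.05 (15.1%), and of the 31 ends tested 6 did, close to the background share. They were the left ends of I (HK10 minus HK12 -3.42, SE 0.0823, adjusted p = 1.17e-08), X (-3.55, SE 0.0229, adjusted p = 8.41e-12) and XVI (-3.54, SE 0.0242, adjusted p = 9.63e-12), and the right ends of XI (0.31, SE 0.0360, adjusted p = 0.000562) and XII (-5.03, SE 0.813, adjusted p = 0.00414). The sixth, the left end of II, held no tract and differed by 0.12 (SE 0.0304, adjusted p = 0.0425). Leaving out single isolates raised that adjusted p to as much as 0.138. The wide error at the right end of XII goes with HK12 A and B, which differ there. The error of each window is pooled over all groups, zygotes included, and A and B count as separate isolates. These p-values therefore do not measure a spread between HK names. With a replicate block the number of ends past the threshold was 4, of 35 windows in all. With the HK name as a random block it was 12, of 119 windows in all. Each HK name is also a group of the fit, so the name block cannot account for descent shared by A and B.

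Between the 2 crosses, 0 of 378 windows passed (0%), and among the 31 ends tested 6 had an unadjusted limma p under 0.05, as did 54 of all windows. The test therefore found no end at which the crosses differed after adjustment.

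The call at the left end of V was unlike the tracts above. It covered 5 SNPs from 31251 to 33770 and was made in zygote 2 of each cross. In those zygotes the S allele stood at 0.103 and 0.0899 against heterozygous SNPs of the chromosome, so it had not fallen, while the Y allele stood at 1.90 and 1.75. The Y allele was raised in every isolate, from 0.664 in HK10 B to 1.96 in zygote 1 of MD893-1, and the S allele lay between -0.302 and 0.212. When a tract also had to have its lost allele at least 1 below heterozygous SNPs, a choice made after the data were seen, no zygote had a tract at any end and the difference between the sets was 4.75 ends.

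Single SNPs of the zygotes were also tested against the control. The test by d used the same values as the calls, so it is not separate support for the locus. With limma over 13358 SNPs, 20 SNPs had an adjusted p under 0.05 and an absolute mean d of at least 1 (0.15%), and 6 of them lay in ends. Of these, 5 were at the left end of V, with mean d from -2.25 to -1.37. Not all were measured in every zygote, with n = 5 at 32231, n = 3 at 32990 and n = 2 at 33332. The sixth lay at 293839 near the right end of III, with a mean d of -1.34 (SE 0.0647, n = 6, limma adjusted p = 5.16e-05). In the HK isolates d at this SNP was also below 0, from -1.43 to -0.74. By s, 26 SNPs passed with an absolute mean of at least 0.5 (0.195%). In ends there were 4 at the left end of V and 1 at the left end of XVI, at 38441 (0.52, SE 0.0832, n = 6, limma adjusted p = 0.00458). With all 4 probes required on every array, 0 of 718 end SNPs passed by d or by s. Over all 7675 such SNPs 7 passed by d and 9 by s. This test leaves out the spread of the control's own DNA.

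Signal over both alleles was slightly higher at the ends of the HK isolates. For each end, s of its heterozygous SNPs was set against the heterozygous interior of the same chromosome. Differences in s between chromosomes thus did not enter. Averaged over ends, this difference was 0.0210 and 0.0310 in isolates A and B of HK10 and 0.0355 and 0.0310 in those of HK12. Among zygotes it ran from -0.0209 to 0.0201. Every HK value lay above every zygote value, by a small margin. The set means were 0.0296 ± 0.00614 (SD, n = 4) and 0.00450 ± 0.0153 (SD, n = 6), a difference of 0.0251 on the log2 scale (p = 0.00952, exact permutation test, two-sided). Against the next 30 kb inwards in place of the whole interior it was 0.0123 (p = 0.2, same exact test). With names in place of isolates the exact p was 0.0714.

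By distance, the HK signal was highest in the outermost 10 kb and lowest from 15 to 20 kb. Within 5 kb of the outermost probe, s in the HK isolates was 0.0470 ± 0.0168 (SD, n = 4) against 0.00839 ± 0.0243 in the zygotes (SD, n = 6). From 5 to 10 kb it was 0.0401 ± 0.0163 against -0.00224 ± 0.0148. From 15 to 20 kb the means were 0.000983 ± 0.0219 and -0.0178 ± 0.0165, and from 25 to 30 kb 0.0329 ± 0.00657 and 0.0192 ± 0.0234. The HK mean thus did not fall steadily with distance.

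One end stood out in the fit over windows. Of 306 windows tested for s between HK isolates and zygotes, 7 passed an adjusted p of 0.05 (2.29%), and of 26 ends tested 1 did, the left end of XV. The fit gave each cross and each HK name equal weight. A and B counted as separate isolates, so its p-values do not measure a spread between HK names. The counts were 4 ends and 34 windows without zygote 1 of MD893-2, 2 ends and 15 windows without zygote 2 of MD893-1, and 1 end and 2 windows with the HK name as a random block. As in the fit of d, this block cannot account for descent shared by A and B. At the left end of XV, s minus the interior was 0.0846 and 0.138 in A and B of HK10, and 0.134 and 0.140 in A and B of HK12. The zygotes ran from -0.0343 to 0.0503, so the sets did not overlap. The limma difference was 0.12 (SE 0.0167, adjusted p = 0.00186), with adjusted p from 0.00186 to 0.0191 when single isolates were left out. No end, and 0 of the 306 windows (0%), passed with a difference of at least 0.2.

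The next largest differences were 0.07 at the right end of XV (adjusted p = 0.143) and 0.06 at the left end of XI (adjusted p = 0.0708), neither past the threshold. At the other extreme the right ends of III (-0.02), VII (-0.01) and VIII (-0.0018) did not pass either. At the right ends of VII and VIII the sign comes from the equal weight of the crosses, since the plain means were higher in the HK isolates (0.0152 against 0.0102, and 0.0395 against 0.0308). The left ends of I, X and XVI and the right ends of IV and XII could not be tested for s, because LOH left too few heterozygous SNPs in both isolates of at least 1 name, and the right end of XIV has too few SNPs.

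**Figure D4:**
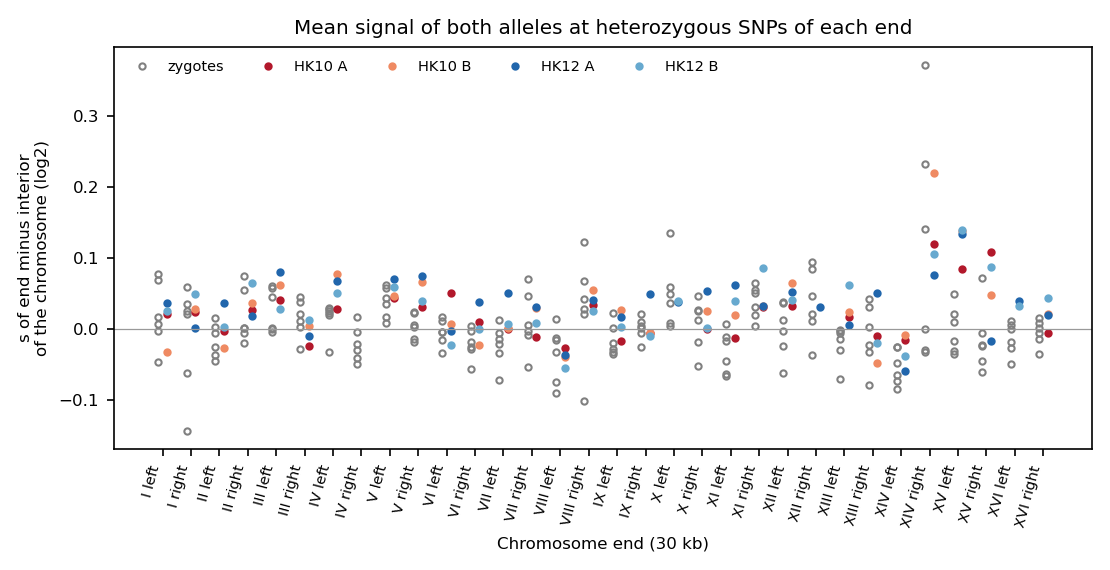
s (log2) of heterozygous SNPs of each end minus that of the interior of the same chromosome, for the 32 ends; open points are the 6 zygotes and filled points the 4 HK isolates, with no point where LOH left no heterozygous SNP. At the left end of XV all 4 HK isolates (0.0846 to 0.140) lie above all zygotes, and the wide spread at the right end of XIV rests on 2 SNPs.

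At the left end of XV the raised signal belonged to the Y allele of the outermost 10 kb. From 12064 to 22005 the Y allele stood above the interior of the chromosome by 0.320 and 0.311 in A and B of HK10, and by 0.340 and 0.336 in A and B of HK12. Among zygotes it lay between -0.0426 and 0.0407. The S allele was 0.0521 ± 0.0139 in the HK isolates (SD, n = 4) and -0.00546 ± 0.0616 in the zygotes (SD, n = 6), with overlapping ranges.

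In 10 kb windows, a size chosen after the data were seen, the Y allele differed by 0.32 (SE 0.0216, limma adjusted p = 8.77e-07), the largest difference of 704 windows, of which 11 passed (1.56%). For d the difference was -0.30 (SE 0.0360, limma adjusted p = 0.000600), where 150 of 876 windows passed (17.1%), many of them in LOH. In both fits A and B counted as separate isolates. From 10 to 30 kb inwards the Y allele was 0.0501 ± 0.0435 in the HK isolates and -0.0167 ± 0.0374 in the zygotes. The median d of the outermost 10 kb was -0.27 ± 0.0413 in the HK isolates, far from the level of a tract.

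**Figure D5:**
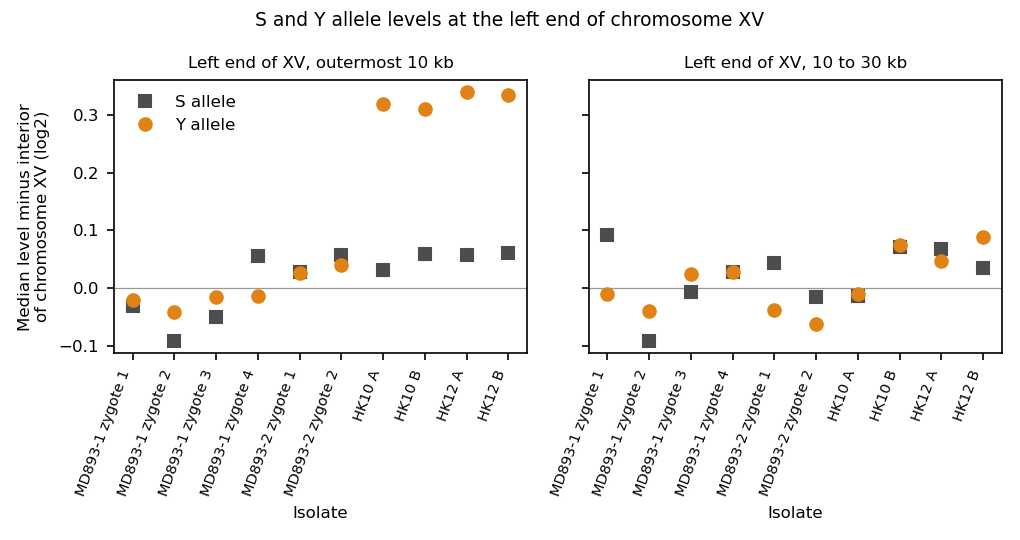
Median log2 level of the S allele (squares) and the Y allele (circles) at the left end of XV against the interior of chromosome XV, for each isolate, in the outermost 10 kb (left panel) and from 10 to 30 kb (right panel). In the left panel the Y allele of the 4 HK isolates lies between 0.311 and 0.340, above all zygotes and above the S allele, and in the right panel the isolates overlap.

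The right end of XIII was the other end whose Y allele passed in 10 kb windows. In its second window the HK isolates stood at -0.0544, the MD893-1 zygotes at 0.0222 and the MD893-2 zygotes at 0.294, a limma difference of -0.21 (SE 0.0328, adjusted p = 0.00453). The mean of the 2 MD893-2 zygotes thus stood above those of the MD893-1 zygotes and the HK isolates there. These arrays also lacked the most end values (11.0% and 10.8%), and the part of that here was not tested. For s, 41 of 704 windows of 10 kb passed, and 3 of 55 at ends. These 3 lay at the left ends of XV (0.174, limma adjusted p = 0.000331), XIII (0.0877, limma adjusted p = 0.0379) and IX (-0.0887, limma adjusted p = 0.04996). In the window of IX the HK isolates stood at -0.0367, the MD893-1 zygotes at -0.0309 and the MD893-2 zygotes at 0.135. With the HK name as a random block the limma adjusted p was 0.000958 for XV, 0.0762 for XIII and 0.0981 for IX. For the S allele 15 of 704 windows passed, 1 of 55 at ends, at the left end of XIII (0.101, limma adjusted p = 0.0421). With the name block its limma adjusted p was 0.0971.

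The right end of I had 9 SNPs with both alleles on the array but 187 probes, because 73 positions carried probes of the S allele alone. These lay from 203576 to 218475. Against the S allele of heterozygous SNPs on chromosome I, they stood at -0.230 and -0.244 in HK10 (A and B) and at -0.166 and -0.205 in HK12 (A and B). The zygotes ran from -0.0156 to 0.119, so the sets did not overlap. These positions were chosen after their values were seen and get no test. Probes there lacked a value in 15.1% to 18.5% of cases in the HK isolates and 6.16% to 21.2% in the zygotes, and the part of missing values in this difference was not tested. The 9 SNPs with both alleles had a median d of -0.24 to -0.17 in the HK isolates and -0.08 to 0.20 in the zygotes. Their S allele stood between -0.0285 and 0.0534 in the HK isolates and between -0.125 and 0.128 in the zygotes, so these 9 SNPs did not show the lower S level of the other positions.

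Probes in the ends lacked a value more often than interior probes on every array. The share at ends was 1.23%, 1.06%, 4.37% and 4.43% in MD893-1 zygotes 1 to 4, against 1.12%, 0.834%, 3.43% and 3.94% in the interior. In the MD893-2 zygotes it was 11.0% and 10.8% at ends against 10.5% and 10.04%. In HK10 A and B it was 6.77% and 7.60% against 5.39% and 5.76%, and in HK12 A and B 8.91% and 7.56% against 7.31% and 6.18%. The ends were thus higher in 10 of 10 isolates, by 0.933 percentage points on average (SD 0.599). An exact sign-flip test over isolates gave a two-sided p of 0.00195, the lowest that 10 isolates allow.

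The excess was larger in the HK isolates, at 1.55 ± 0.217 points (SD, n = 4) against 0.519 ± 0.321 for the zygotes (SD, n = 6; p = 0.00952, exact permutation test, two-sided). As a ratio of the end share to the interior share, the isolates overlapped, at 1.22 to 1.32 in the HK isolates and 1.05 to 1.28 among zygotes (p = 0.114, exact permutation test, two-sided). Outside LOH tracts the excess of the HK isolates over the zygotes was 1.11 points. The ratio and the count outside tracts were added after the data were seen.

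Over all tracts at ends of an isolate, a larger share of probes lacked a value for the lost allele than for the kept allele. The shares were 11.0% lost and 4.03% kept in HK10 A, 9.90% and 8.67% in HK10 B, 19.8% and 4.35% in HK12 A, and 14.3% and 7.57% in HK12 B. In the Y tracts of HK10 B, which hold most of its tract probes, the order was the other way, at 9.42% lost and 9.73% kept. On the same probes the zygotes, with both alleles present, reached at most 12.3% for the allele lost in HK12 A and 8.70% for the allele kept, and 11.1% and 7.57% for HK12 B. For the tracts of HK10 A the highest zygote shares were 7.74% for the lost and 9.21% for the kept allele. No test was made of these shares.

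Missing values were unevenly spread over the ends. Over all isolates the left end of I lacked 12.0% of values, the right end of I 11.6% and the left end of VI 10.2%. The lowest shares were 0% at the right end of XIV, which has 14 probes, 0.606% at the left end of III and 2.24% at the right end of II. At the left end of I, which lies in a tract in HK12, HK10 A lacked 12.0%, HK10 B 18.5%, HK12 A 15.2% and HK12 B 31.5% of values. Zygotes of MD893-1 lacked 1.09% to 5.43% and those of MD893-2 lacked 14.1% and 15.2%, so the HK isolates and the zygotes overlapped. On all arrays 29 end probes (0.531%) and 190 interior probes (0.394%) had no value.

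The noise of d at heterozygous SNPs was close in ends and interior. Averaged over the isolates, the scaled median absolute deviation was 0.00696 higher in the ends, higher in 8 of 10 isolates (p = 0.0547, exact sign-flip test, two-sided). The excess was 0.0156 ± 0.00938 in the HK isolates (SD, n = 4) and 0.00120 ± 0.00544 in the zygotes (SD, n = 6). Against a median d of about 3 in the tracts this noise, at most 0.279 on any array, was small.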

How the data were processed

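The deposited table gives a linear ratio of isolate (Cy5) to control (Cy3) per probe and array. Per the file headers the columns come from GenePix files, and each column averages 1, a scaling already in the deposited values. The sources used here do not state the filter, background correction or genome build. Columns were matched to isolates through the source names, which read MD891 or MD892 where the titles read MD893-1 or MD893-2.

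Each array's log2 ratios had their median subtracted. No loess or quantile normalization followed. A hidden Markov model called LOH along each chromosome. Its emissions were t densities (4 degrees of freedom) around 0, 3 and -3. Their scale was 0.8 if homozygous and at least 0.1 if heterozygous, and the switch probability was 0.0001. Tracts needed 5 SNPs, and interior calls on II and XV shared by all isolates of a cross were left out. Exact tests used scipy 1.17.1 and window and SNP fits limma 3.58.1 with at least 5 SNPs per window. Tract calling and fits were tested on simulated data. Zygote numbers and isolate letters did not pair the arrays. The number of arrays limits the precision.

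Ends were named if they held a tract, had the 3 largest differences in s in either direction, the 3 highest or lowest shares of missing values, the 3 fewest SNPs, or 3 SNPs called against the control. The ends, tests and alternatives were chosen with earlier results of these data known.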

Additional observations from a re-analysis of the deposited data

Results flagged for a closer look

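Of 5 measures checked among the 4 zygotes of MD893-1, 2 had a zygote far from the others. Zygote 2 had 1 end with a tract and 0.378% of its end SNPs in LOH, and the other 3 had none. These are 1 call, at the left end of V, where S had not fallen. Chance sets apart about 1 in 20 such groups of continuous values, and any single call among 4 zygotes stands apart by this criterion.

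The excess of ends over interior differed between HK isolates and zygotes in 3 measures. For s the difference was 0.0251 (exact two-sided permutation p = 0.00952, no overlap of the sets). For missing values it was 1.03 percentage points (exact two-sided permutation p = 0.00952, no overlap), though the ratios of the shares overlapped. For the noise of d it was 0.0144 (exact two-sided permutation p = 0.019). There the sets overlapped, with 0.00412 in HK12 B and 0.00948 in zygote 2 of MD893-1. On average the HK arrays thus had a larger excess of ends over interior in signal, missing values and noise. The part of each in the others was not tested. The levels at ends were not all higher, since the MD893-2 zygotes lacked the most end values (11.0% and 10.8%). The highest noise at ends was 0.279, in zygote 2 of MD893-2.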

How the results depend on the processing

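Of 157 values computed under alternatives for 11 results, 135 counted as the same. Tests had to keep their direction and side of the threshold, and counts had to stay within 1.5 times. The share of end SNPs in LOH minus the interior had to keep its sign and stay within 1 SD over the HK isolates, a wide limit. With 1 value per HK name the differences between HK isolates and zygotes were 4.42 ends with a tract, 0.0251 in s and 1.03 points of missing values, each with an exact permutation p of 0.0714. The difference of s against the next 30 kb (0.0123) and that of the ratio of missing shares (0.105) also lost the threshold. The noise difference became 0.0112 with ends of 20 kb (exact sign-flip p = 0.0137) and 0.0116 with 10 kb (exact sign-flip p = 0.0332). The share of end SNPs in LOH minus that of the interior reversed to -0.579 points without HK10 B, and ranged from -0.579 to 2.73 when single isolates were left out. Leaving out single isolates gave 4.33 to 4.67 ends, 0.0201 to 0.0283 for s, 0.832 to 1.02 points for missing values, 0.939 to 1.12 points for their difference between sets, and 0.00473 to 0.00852 for noise, which passed the threshold without zygote 1 (0.00790) or zygote 3 (0.00852) of MD893-1.

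The number of ends past the s threshold was 2 with means over SNPs (19 of 306 windows in all). It was 1 to 4 without single isolates (2 to 34 windows in all). This included 2 without zygote 2 of MD893-1 and 4 without zygote 1 of MD893-2. For d between HK10 and HK12 the number of ends was 12 with the HK name as a random block (119 of 378 windows in all). The estimated correlation of that block was -0.487. Without single isolates the number of ends was 5 to 8 (52 to 81 windows in all). A replicate block gave 4 ends (35 of 378 windows in all), and 0 between the crosses. Same-numbered zygotes 1 and 2 of the crosses deviated apart (r = -0.25 over 325 windows in d) and HK letters did not deviate together (r = 0.00655), so the block pairs only numbers. Zygote SNPs called in ends by d were 3 with all 6 zygotes measured, against 16 over all SNPs. They were 1 of 13 called at an effect threshold of 2 and 0 of 7 with all 4 probes on every array. Without single zygotes they were 5 to 6, against 18 to 21 over all SNPs. By s the end SNPs were 2 of 18 called with all zygotes measured, 1 of 9 at a threshold of 1 and 0 of 9 with all 4 probes. At a threshold of 0.25 they were 60 of 1321 tested, against 685 of 13358 over all SNPs. Without single zygotes they were 3 to 6, against 21 to 37 over all SNPs, the 3 without zygote 4 of MD893-1. Fewer SNPs were tested where all zygotes or all 4 probes had to be measured. Causes of the other changes were not tested. The number of isolates and names sets the smallest p.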
